A study of Canis lupus familiaris with 6 samples.

Results

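HMOX1, TXNRD1 and SLC7A11 are 3 genes of the cell's defence against oxidants. They were followed here in dog kidney epithelial cells carrying a scribble hairpin under a tetracycline switch, cultured with or without tetracycline. The members were given as a list and were chosen by their difference between the arms in these same arrays, so that difference and its change over time are described below with no test. They are 3 of 1436 genes that could be named on the array, and they are covered by 6 of 2325 named probes, namely 1 for HMOX1 (NM_001194969), 4 for TXNRD1 (NM_001122673) and 1 for SLC7A11 (NM_001301862). All 6 probes were well above background on all 6 arrays.

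The cells are MDCK-II scribKD cells, a line derived from dog kidney tubule epithelium that makes a short hairpin RNA against the polarity scaffold scribble under a tetracycline switch. They were grown in high-glucose DMEM with serum and penicillin G. One arm received tetracycline at 5 µg/ml, 6 h after plating, and the other did not. Total RNA was taken 30, 45 and 60 h later, RNA of 3 wells was mixed for each sample, and each of the 6 conditions was measured on 1 one-colour Agilent array, so no condition has a replicate array. Every group carries the hairpin construct, and no line without it is among the samples, so an effect of the hairpin and an effect of tetracycline itself cannot be told apart. Whether the line is 1 clone is not stated in the labels, and scribble itself has no named probe, so its level was not analysed here.

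Oxidant and electrophile defence is coordinated in large part by the transcription factor NRF2. The adaptor KEAP1 marks NRF2 for degradation; when reactive cysteines of KEAP1 are modified, NRF2 accumulates, pairs with small MAF proteins and binds antioxidant response elements. HMOX1 encodes haem oxygenase, which opens the haem ring to give biliverdin, carbon monoxide and iron, and it is also held down by the haem-sensing repressor BACH1. TXNRD1 encodes the cytosolic thioredoxin reductase, a selenium-containing flavoenzyme that uses NADPH to keep thioredoxin reduced. SLC7A11 encodes the light chain of the cystine and glutamate exchanger xCT, which brings in cystine for glutathione synthesis, and besides NRF2 it responds to ATF4, the factor of amino acid shortage. In kidney tubule cells the products of these genes take part, between them, in handling haem, iron and oxidant load.

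The scanner program marked 64.3% to 68.8% of the non-control spots of each array as well above background, and pairs of arrays correlated at 0.986 to 0.991. Of 9 kidney epithelial markers with a named probe, 7 were well above background on all 6 arrays, AQP1 on 4 and UMOD on none. Their summed signal was 98.1 to 106.1 times the array's 75th percentile with tetracycline, against 122.3 to 123.0 times without it. Of 5 fibroblast markers 4 were well above background on all arrays and DCN on none, with sums of 3.60 to 3.74 and 3.26 to 3.76 times. CD4 and CD8A, the 2 of 9 listed leukocyte markers with a named probe, were well above background on all 6 arrays. They summed to 0.0951 to 0.110 and 0.0943 to 0.109 times. VWF and KDR, the 2 of 6 listed endothelial markers with a named probe, were also well above background on all 6. They summed to 22.0 to 24.7 and 23.1 to 24.1 times. Detection of these markers alone does not separate the cell types. The part that the lower epithelial sum with tetracycline has in the results below was not tested. In pooled RNA of a culture, fewer cells that express a gene and less RNA of it per cell cannot be told apart.

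Levels below are log2 of the processed signal less the array's 75th percentile, so that 0 is the level of a probe at that percentile. Differences are with minus without tetracycline on the same log2 scale. The only error available for a single array is the one that the scanner program attaches to each spot, 10.0% to 10.8% of the signal for these probes. Differences are called larger than that error when they lie outside its 95% bounds. That error leaves out the variation between cultures and labelling reactions. A difference within or beyond it therefore describes single arrays and is not a test of the arms or times.

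HMOX1 parted in both directions, higher with tetracycline and lower without it as time went on. With tetracycline it stood at -2.79, -2.20 and -1.77 at 30, 45 and 60 h. Without tetracycline it stood at -2.78, -3.02 and -3.49 at the same times. At 30 h the arms lay within the scanner error of each other, and the later arrays with tetracycline stood above all 3 without it. The difference was -0.01 at 30 h, 0.82 (1.76-fold) at 45 h and 1.71 (3.28-fold) at 60 h. In order of level, the 60 h array without tetracycline came lowest, the 45 h array without tetracycline next, then both 30 h arrays, then 45 h and 60 h with tetracycline. The 45 h array without tetracycline and the 30 h arrays did not differ beyond the scanner error, and each of the other steps did. The probe is dim, at linear signals of 91.6 to 170.0 with tetracycline and 52.6 to 92.9 without it, where the lowest signals well above background on the arrays were 9.07 to 13.6.

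**Figure D1:**
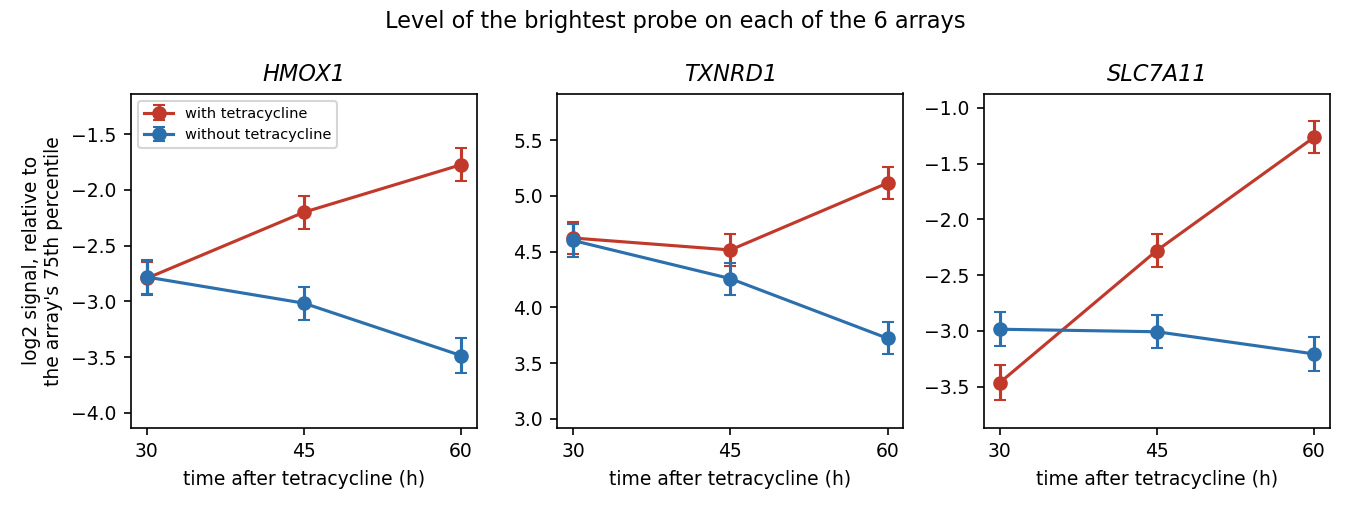
Level of the brightest probe of each gene (log2 signal relative to the array's 75th percentile) against time in hours, with tetracycline in red and without it in blue. Each point is 1 array and bars are 1 scanner program error of that spot; the arms stand together at 30 h for HMOX1 and TXNRD1 and apart at 60 h for all 3 genes, where they differ by 1.71, 1.39 and 1.94.

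On these arrays TXNRD1 differed between the arms later than HMOX1, and mostly through a lower level without tetracycline. The 45 h arrays of the arms lie on different slides, as do the 30 and 60 h arrays of each arm. The part of the slide in the timing and in the share of each arm was not tested. The brightest TXNRD1 probe, A_11_P169628, stood at 4.62, 4.51 and 5.12 at 30, 45 and 60 h with tetracycline. Without tetracycline the same probe stood at 4.60, 4.26 and 3.72. Its 4 middle levels, from the 45 h array without tetracycline up to the 30 h array with it, followed each other within the scanner error, whereas the highest (60 h with tetracycline) and the lowest (60 h without it) were separate from their neighbours. The difference between the arms was 0.02 at 30 h, 0.26 at 45 h and 1.39 (2.63-fold) at 60 h.

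The other TXNRD1 probes were also highest at 60 h with tetracycline and lowest at 60 h without it. Across all 4, which share their samples and transcript and so are not replicates, the difference was 0.02 to 0.04 at 30 h, 0.26 to 0.47 at 45 h and 1.36 to 1.51 at 60 h, or 2.56- to 2.85-fold. At 45 h it passed the scanner error on 1 of the 4, A_11_P089706 (0.47). Without tetracycline the level at 60 h was below that at 30 h by 0.88 to 1.13 on the log2 scale (-1.13 to -0.88). With tetracycline the 60 h level was above the 30 h level by 0.27 to 0.49, within the scanner error for A_11_P089706 alone. Pairs of these probes correlated at 0.962 to 0.996 over the 6 arrays, given as a description.

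SLC7A11 differed from the others in that the arm without tetracycline hardly moved. With tetracycline it stood at -3.47, -2.28 and -1.26 at 30, 45 and 60 h, a 4.60-fold higher level at 60 h than at 30 h. Without tetracycline it stood at -2.99, -3.01 and -3.21, 3 levels within the scanner error of each other. The 30 h array with tetracycline was the lowest of all 6, within the scanner error of the 60 h array without it. The difference between the arms at 30 h was -0.48 (1.40-fold lower with tetracycline), beyond the scanner error. At 45 h the sign was the other way, 0.73 (1.66-fold higher), and at 60 h it was 1.94 (3.85-fold higher). Linear signals were 57.4 to 242.1 with tetracycline and 63.9 to 80.6 without it.

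**Figure D2:**
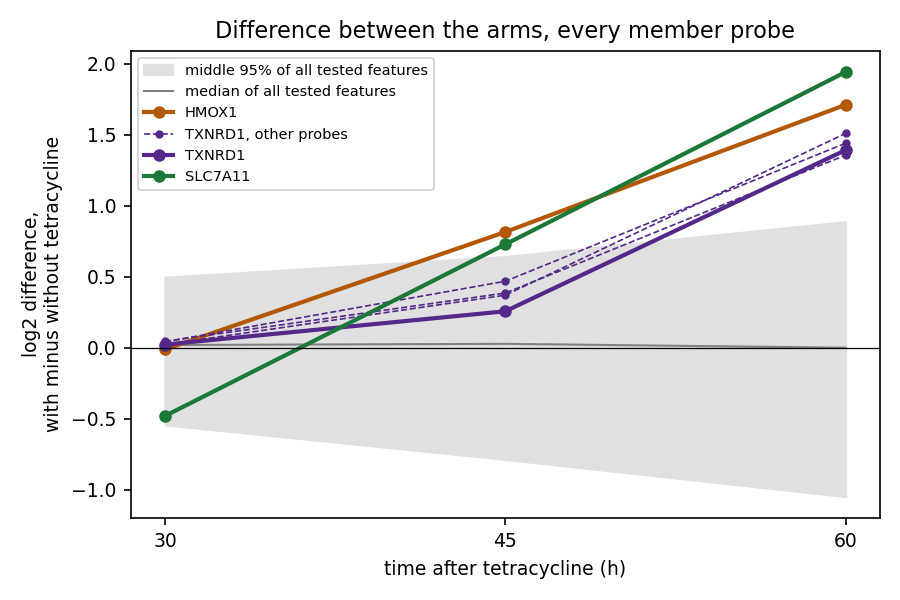
Difference between the arms (log2, with minus without tetracycline) against time in hours for every probe of the 3 genes; thick lines are the brightest probes, dashed lines the other TXNRD1 probes. The grey band is the middle 95% of all tested features, -1.05 to 0.89 at 60 h, and each of the 6 probes lies above it at 60 h.

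Of the 3 genes, 0 were at least 2-fold higher with tetracycline at 30 h, where 1.84% of 28800 features were. At 45 h it was again 0, beside 1.95% of 30004 features, and at 60 h all 3, beside 3.05% of 29791. As the genes were chosen on this contrast, nothing is read from that count. Among 27581 features tested, 119 had a difference at 60 h at least as high as that of HMOX1, 238 as that of TXNRD1 and 86 as that of SLC7A11. The 30 h pair lies on slide 1 and the 60 h pair on slide 2, so these differences are within a slide. The 45 h difference spans both slides, with tetracycline on slide 2 and without it on slide 1.

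The widening between 30 and 60 h was made up differently in each gene. For HMOX1 the difference moved by 1.72, of which the array with tetracycline contributed 1.02 (59.1%) and the array without it 0.70 (40.9%). For the brightest TXNRD1 probe it moved by 1.37, with 36.0% from the arm with tetracycline and 64.0% from the arm without it. Over its 4 probes the arm with tetracycline gave 19.0% to 36.0% and the arm without it 64.0% to 81.0%. For SLC7A11 the difference moved by 2.42, of which 90.9% came from the arm with tetracycline and 9.14% from the arm without it. These shares rest on 1 array per condition and on the scaling to the 75th percentile, and the contrast is the one that chose the genes. The 30 and 60 h arrays also lie on different slides. A shift between slides would cancel in the widening but not in the shares, and its part in them was not tested.

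**Figure D3:**
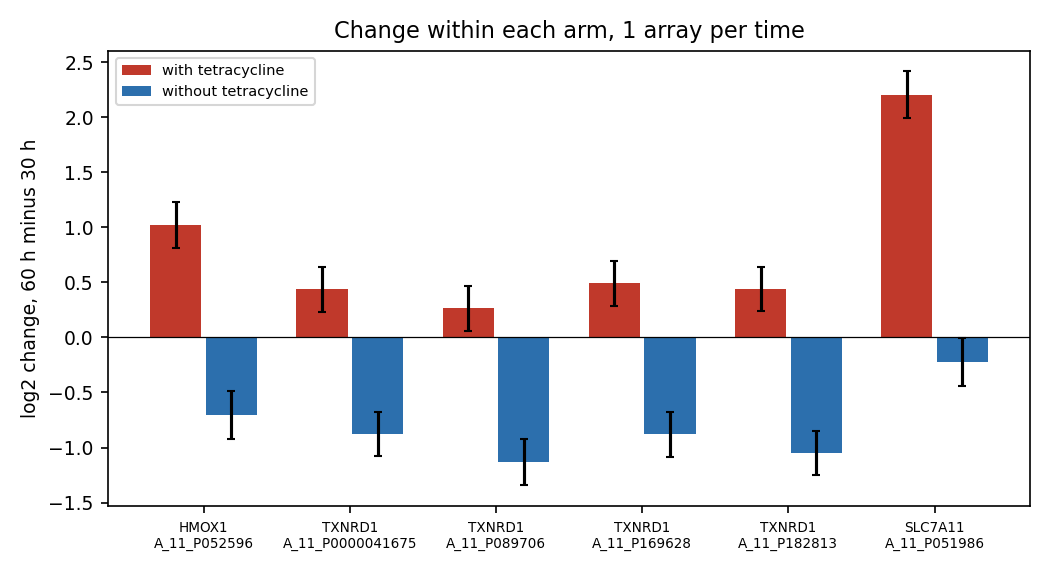
Change from 30 to 60 h (log2, later minus earlier) for each probe, with tetracycline in red and without it in blue. Bars are differences between 2 arrays and error lines are 1 combined scanner error; the change is positive with tetracycline and negative without it for each of the 6 probes, from 0.27 to 2.20 and from -1.13 to -0.22.

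By fold, 2 of the 3 genes were at least 2-fold higher at 60 h than at 30 h with tetracycline, HMOX1 (2.03-fold) and SLC7A11 (4.60-fold), beside 3.95% of features. Without tetracycline 0 of 3 were at least 2-fold lower by their brightest probe, beside 2.60% of features, although TXNRD1 probes A_11_P089706 and A_11_P182813 were 2.20- and 2.07-fold lower. The 30 and 60 h arrays lie on different slides, so within an arm time and slide run together. The steps that stay on 1 slide are 45 to 60 h with tetracycline and 30 to 45 h without it. With tetracycline, from 45 to 60 h, HMOX1 moved by 0.43, TXNRD1 by 0.60 and SLC7A11 by 1.02 on their brightest probes, each beyond the scanner error; TXNRD1 probe A_11_P089706 (0.27) was within it. Without it, from 30 to 45 h, they moved by -0.23, -0.34 and -0.02, each within the scanner error, although TXNRD1 probes A_11_P089706 (-0.43) and A_11_P182813 (-0.47) were beyond it.

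Time in culture over both arms, 60 h minus 30 h, is an estimate that the choice of genes did not use. Its error did take in the change of the arm difference over time, on which the genes were chosen. With limma across 27581 features and 6 arrays, 8.15% had an adjusted p under 0.05, and 0 of the 3 genes did. SLC7A11 was higher at 60 h by 0.99 ± 0.58 (SE; 95% interval -0.58 to 2.56; limma adjusted p = 0.316). HMOX1 stood at 0.16 ± 0.42 (-0.97 to 1.28; limma adjusted p = 0.827) and TXNRD1 at -0.19 ± 0.36 (-1.16 to 0.77; limma adjusted p = 0.748). The fit has a single time effect for both arms, so the different courses of the arms enter its error. Genes chosen for such courses are less likely to pass, and nothing is read from 0 of 3 beside 8.15%. Both 30 h arrays lie on slide 1 and both 60 h arrays on slide 2. SLC7A11 stood at 0.08 without either the 30 or the 60 h array with tetracycline, and at 1.90 without either such array of the other arm. For TXNRD1 the sign turned with the slide as a further term (0.26) and without either 30 or 60 h array of the arm without tetracycline (0.21 and 0.43). HMOX1 turned without either such array with tetracycline (-0.48 and -0.50).

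The rest of the pathway was read on 46 other listed genes with a tested probe, from 9 lists of which the NADPH supply list had none. At 60 h 21 of the 46 were higher with tetracycline and 25 lower, with a median difference of -0.05, beside -5.2e-05 over all features. ALDH3A1 and PTGS2, 2 of the 46, were higher with tetracycline by 2-fold or more, beside 3.05% of all features. ALDH1A1 and VLDLR, also 2 of the 46, were lower by 2-fold or more, beside 4.58%. Tested over the 3 times with limma, 0 of the 46 passed an adjusted p of 0.05 for the arms, as did 0% of all features; at an unadjusted p under 0.05 stood 7 of the 46 and 6432 of 27581. CES1, in these counts, was not well above background at 60 h with tetracycline and has no fold there.

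Of 45 further NRF2 targets listed 13 were tested, of which 5 were higher and 8 lower with tetracycline at 60 h, with a median of -0.08. ALDH3A1, an aldehyde dehydrogenase, stood at 5.04, 5.35 and 6.29 at 30, 45 and 60 h with tetracycline, against 5.31, 5.15 and 5.18 without it. Its difference went the way of the members, at -0.26, 0.20 and 1.11 (mean 0.35, limma adjusted p = 0.492; -0.029 without the 60 h pair), on the 1 of its 2 probes that was well above background on all arrays. ALDH1A1, which oxidises retinaldehyde, went the other way, with 2.79, 2.48 and 2.41 with tetracycline, against 2.91, 3.09 and 3.64 without it (mean -0.65, limma adjusted p = 0.199). The conjugate exporters ABCC2 and ABCC1 had mean differences of -0.40 (limma adjusted p = 0.147) and -0.23 (0.197), and the ferritin chains FTH1 and FTL of 0.01 and -0.12. Of 18 listed regulators of the NRF2 pathway 1 was tested, the deubiquitinase USP11, at 0.47, 0.28 and 0.06. NFE2L2 and KEAP1 have no named probe here.

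**Figure D4:**
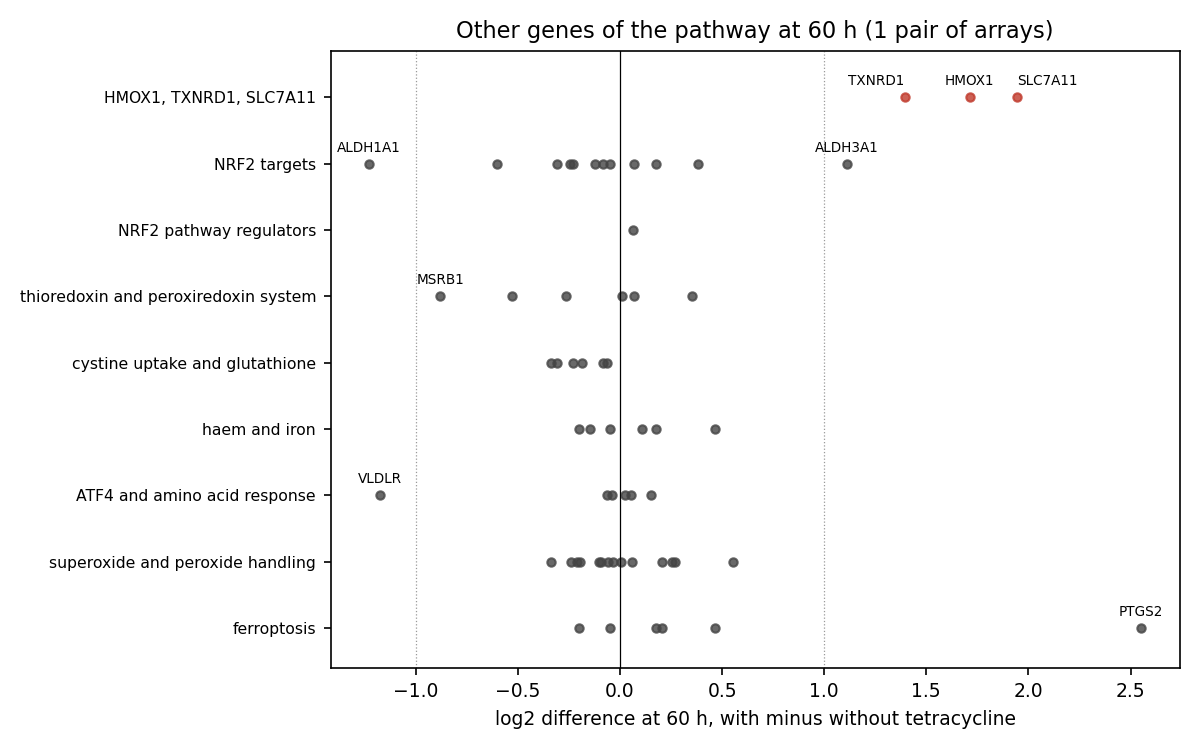
Difference between the arms at 60 h (log2, with minus without tetracycline) for the 3 genes in red and for other listed genes by list in grey, each a single pair of arrays; dotted lines mark 2-fold and a gene in several lists appears in each. CES1 is left out as not well above background at 60 h with tetracycline. The 3 genes lie between 1.39 and 1.94, and of the other listed genes PTGS2 and ALDH3A1 lie above 1 and ALDH1A1 and VLDLR below -1.

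Around TXNRD1, 6 of 29 other thioredoxin, peroxiredoxin and selenoprotein genes were tested, with a median difference of -0.13 at 60 h. Of these 6, 0 were 2-fold different, beside 3.05% of all features higher and 4.58% lower. With 6 genes, nothing is read from that 0. The peroxiredoxin PRDX1, which thioredoxin reduces, stood at 0.03, -0.06 and 0.07. TXNRD3, a reductase related to TXNRD1, stood at 0.05, 0.01 and 0.35. The selenoprotein MSRB1, a methionine sulfoxide reductase, was lower at each time, at -0.18, -0.58 and -0.88 (mean -0.55, limma adjusted p = 0.160), on both of its probes at 60 h. SEPHS2, which makes the selenium donor for selenoprotein synthesis, had a mean of -0.17 and the selenium carrier SELENOP one of -0.16.

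Around SLC7A11, 6 of 36 other cystine and glutathione genes were tested, and all 6 were lower with tetracycline at 60 h, by small amounts (-0.34 to -0.06). SLC3A2, the heavy chain that carries SLC7A11 to the membrane, stood at -0.11, 0.16 and -0.06, with its second probe on the other side of 0 at 60 h (0.25). The glutathione peroxidases GPX1, GPX2 and GPX8 had mean differences of -0.22, -0.13 and -0.06 and the transferase GSTA4 one of -0.08. Of 42 other ATF4 and amino acid response genes 6 were tested. The amino acid transporters SLC7A5, SLC1A5 and SLC7A1 had means of 0.10, -0.09 and 0.03. The lipoprotein receptor VLDLR stood at -2.06, -1.65 and -1.34 with tetracycline, against -2.00, -1.13 and -0.16 without it (mean -0.59, limma adjusted p = 0.224).

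Around HMOX1, 6 of 34 other haem and iron genes were tested, with 60 h differences of -0.20 to 0.46. The transferrin receptor TFRC, which brings in iron, had the highest, at 0.05, 0.04 and 0.46. The haem-binding protein PGRMC1 had a mean of 0.10 and hepcidin, HAMP, one of 0.02. Of 30 superoxide and peroxide genes 14 were tested. Of these 14, 0 were 2-fold different at 60 h, beside 3.05% of all features higher and 4.58% lower. With 14 genes, nothing is read from that 0. The small GTPase RAC1, also a subunit of NADPH oxidase, stood at a mean of 0.32 (limma adjusted p = 0.193) and the metallothionein MT2A at -0.22 (0.189). CCS, the copper chaperone of superoxide dismutase, rose by 0.67 ± 0.10 over time in culture (SE, limma adjusted p = 0.0403). It was the 1 of the 46 listed genes to pass for time, beside 8.15% of all features. The change of CCS was 0.55 when slide was added to the fit, and it no longer passed (limma adjusted p = 0.935). Without any 1 of the 30 or 60 h arrays it was 0.56 to 0.78 and did not pass (limma adjusted p = 0.0668 to 0.119), nor did it with no detection filter (0.67, limma adjusted p = 0.165). Of 23 other ferroptosis genes 6 were tested, the mitochondrial channel VDAC3 standing at a mean of 0.15. The prostaglandin synthase PTGS2 stood at -0.54, 0.66 and 2.55 (mean 0.89, limma adjusted p = 0.428; 0.060 without the 60 h pair).

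Over the 6 arrays the members correlated with each other at 0.895 for HMOX1 and TXNRD1, 0.871 for HMOX1 and SLC7A11 and 0.664 for TXNRD1 and SLC7A11. These correlations, like those below, describe 6 arrays that share arms, times and slides, and carry no p. The members were chosen on the same difference between the arms in these arrays. They are therefore apt to correlate with each other, and with other genes that differ between the arms, and nothing is read from that. The genes most like each member were sought among 217 named genes that were well above background on all arrays and varied with an SD of at least 0.3. Of these 16 correlated above 0.9 with HMOX1, 9 with TXNRD1 and 15 with SLC7A11.

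Among the genes most like HMOX1 were the hyaluronan receptor CD44 (Pearson r = 0.994), the transcriptional repressor SNAI2 (0.984), the NAD-consuming ectoenzyme CD38 (0.976) and the phospholipid-binding protein ANXA1 (0.960). CD44 stood at -0.24, 0.10 and 0.52 with tetracycline, against -0.28, -0.36 and -0.75 without it, and so parted in both directions as HMOX1 did. Most like TXNRD1 were PTGS2 (0.975), the protease inhibitor PI3 (0.946), ANXA1 (0.945), SNAI2 (0.927) and the interferon IFNK (0.912). PTGS2 stood at 1.29, 1.46 and 2.50 with tetracycline, against 1.83, 0.80 and -0.06 without it. The second probe of PI3 went against the first (r = -0.821 with TXNRD1).

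Most like SLC7A11 were the ciliary zinc finger gene DZIP1 (0.992), the glucose transporter SLC2A1 (0.975), the actin regulator VASP (0.966), the clathrin assembly gene SNAP91 (0.965) and ALDH3A1 (0.947). SLC2A1 stood at 5.92, 6.56 and 6.96 with tetracycline, against 5.94, 6.08 and 5.87 without it. Like SLC7A11 it was highest at 60 h with tetracycline and similar on the 3 arrays without it. SNAI2 and ANXA1 were among the 5 genes most like HMOX1 and also among the 5 most like TXNRD1.

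**Figure D5:**
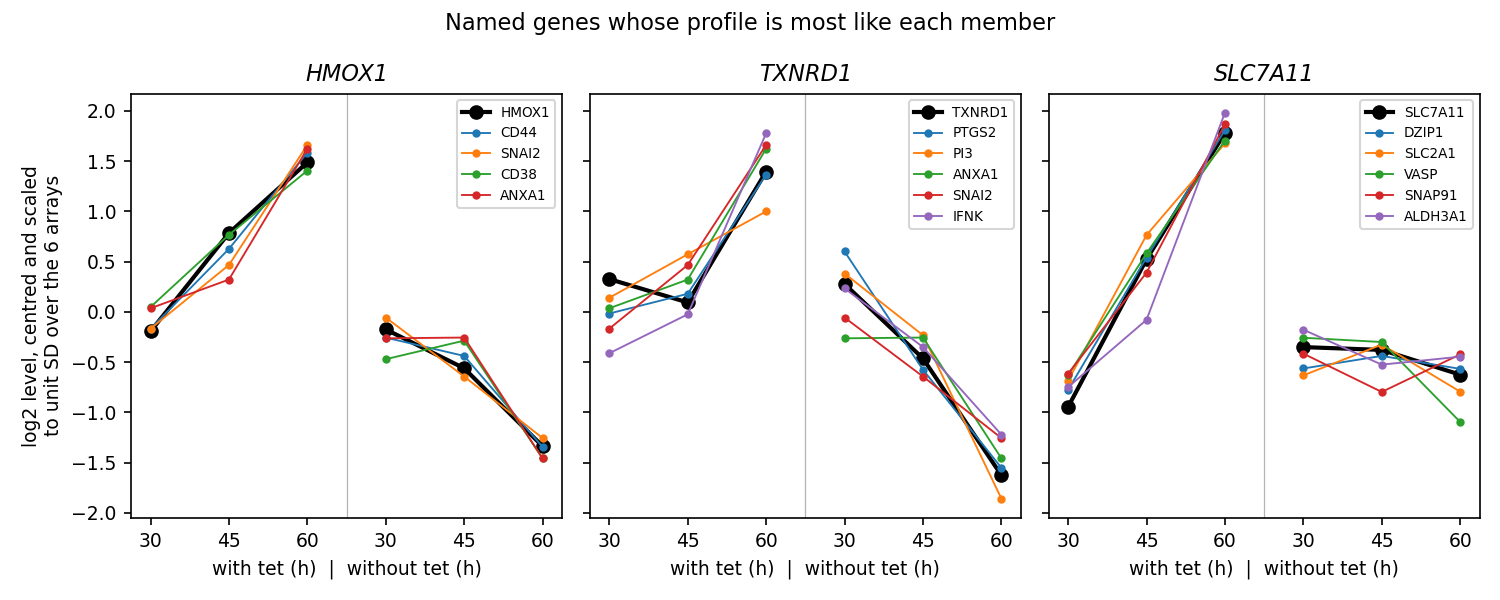
Log2 level of each member (black) and of named genes most like it (coloured; 4 for HMOX1 and 5 for each of the others), centred and scaled to unit SD over the 6 arrays, at 30, 45 and 60 h with tetracycline and then without it. In the HMOX1 and TXNRD1 panels the 60 h array without tetracycline is the lowest point of each gene, while in the SLC7A11 panel the arm without tetracycline lies between the low and the high arrays with tetracycline for SLC7A11 itself.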

How the data were processed

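Total RNA of 6 samples, 1 per arm and time, was labelled with Cy3 for one-colour Agilent dog arrays (45220 spots each). The deposited scanner files hold spot intensity from Agilent Feature Extraction 11.5.1.1 (per the submitters' processing notes and the file headers), background-subtracted and detrended with no normalization between arrays; the headers name CanFam3.1 as build. In the deposited value table of the series the intensity is linear too, equal to the processed signal times 1 factor per array (2.30 to 2.62), its scaling otherwise not given in the sources used here. The deposited flags mark spots well above background or as outliers (a 0 or 1 value).

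Here outlier spots were left out, spots of a probe averaged (43584 probes kept, 19 dropped), and values taken as log2 signal minus the array's 75th percentile of 43803 non-control spots. Probes were named by unversioned accession through RefSeq gene names (assembly UU_Cfam_GSD_1.0), whose build differs, so its coordinates are not given; 2325 probes of 1436 genes were named. Sequences of the probes and promoters were not analysed here. Features well above background on all 3 arrays of an arm, a gene by its brightest probe, were tested across all 27581 features with limma 3.58.1 in R 4.3.3 (two-sided, Benjamini-Hochberg), with arm and time as terms and 2 residual degrees of freedom; both fits were tested on simulated data. With no replicate arrays, p-values measure the spread over times or arms only. A feature entered a count of 2-fold differences if either array of the pair was well above background. Named genes are the members, the 5 genes most like each by Pearson r, up to 4 genes of each list by mean arm difference, listed genes past a test, and a few others (PRDX1, FTH1, SLC3A2, CES1) chosen after their values were seen; results for 2 further genes are left out here. The members and lists were chosen with earlier results of these data known. Alternatives were quantile and median scaling, normexp (offset 50; on median spot signal, as mean signal was not used), series matrix values, detection filters, mean of probes, a trended robust prior, a slide term, no time term and left-out arrays or times. Added after seeing the data were the mean of the TXNRD1 probes and the scalings of time courses and of likeness.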

Additional observations from a re-analysis of the deposited data

Results flagged for a closer look

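HMOX1 drew attention because the arms moved in opposite directions between 30 and 60 h, by 1.02 with tetracycline and -0.70 without it, each beyond the scanner error. TXNRD1 did the same, by 0.49 with tetracycline and -0.88 without it. With 1 array per condition the difference was not tested, and both genes were chosen on this contrast. The 30 and 60 h arrays lie on different slides, and the part of the slide in these changes was not tested.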

How the results depend on the processing

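The labels give no replicate numbers, and the fit for the arms compared them within each time. In the members' differences by time, sign was followed only where the difference exceeded the spread of a difference (0.15), and 0 turned. Of 48 repeats of these differences 42 stayed within that spread of the main value. Those that moved were, with normexp, HMOX1 at 45 h (0.49) and 60 h (1.15), SLC7A11 at 30 h (-0.27), 45 h (0.48) and 60 h (1.39), and TXNRD1 at 45 h on probe A_11_P089706 (0.47). Within the arm with tetracycline, normexp gave HMOX1 0.33 from 30 to 45 h and 0.67 from 30 to 60 h, and SLC7A11 0.69 and 1.44; the added offset narrows folds of dim probes. Median scaling moved the 60 h minus 30 h median of all features by -0.11 without tetracycline.

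For time in culture 2249 features passed (limma), against 3565 with normexp, 3771 with the trended prior, 0 with no detection filter, 0 with the slide term and 0 without any 1 of the 30 or 60 h arrays. The time effect of TXNRD1 turned to 0.26 with the slide term and ranged from -0.82 to 0.43 over left-out arrays, HMOX1 from -0.50 to 0.81 and SLC7A11 from 0.08 to 1.90; turned values were 0.21, 0.43, -0.48 and -0.50. For the arms 0 features passed, with 6432 at an unadjusted p under 0.05 (limma), against 54 with normexp, 16 with the trended prior, 17 with no time term and 0 to 1 with a time left out (1 without the 30 h pair). Among listed genes HAMP turned with normexp (-0.0074) and the slide term (-0.035, as without the 45 h pair). With a time left out, 4 means turned sign in at least 1 fit: HAMP (-0.035 to 0.11; -0.0012 without the 30 h pair), ALDH3A1 (-0.029 to 0.66), GSTA4 (-0.17 to 0.037) and SELENOP (-0.32 to 0.021), the last 3 without the 60 h pair; of 27 listed genes taken by the naming rule, 0 passed for the arms under any alternative (lowest adjusted p 0.0708). Features 2-fold different numbered 1019, 1495 and 2272 at 30, 45 and 60 h, against 102, 214 and 622 with normexp and 217, 555 and 1222 with both arrays well above background. The 60 likeness repeats stayed within 0.1. The number of arrays, and the dim probes of HMOX1 and SLC7A11, limit precision; causes of these changes were not tested except where stated.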
